A study of Mus musculus with 374 samples.

Results

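The progenitor/stem cells with the most surface c-Kit were compared with those with the least. Among the 95 wells that the labels call LSK (Lin- Kit+ Sca1+, plate rows K to N), the c-Kit fluorescence that the sorter recorded for each cell was ranked. The 32 wells with the highest values (c-Kit-high) were set against the 32 with the lowest (c-Kit-low), which makes 64 of the 374 wells of the series, and the 31 wells in between were left for description. The wells were thus selected on a measured value, and the c-Kit fluorescence itself is given as a description with no test. Both groups came from the bone marrow of the same C57BL/6 female mouse, aged 10 to 13 weeks, for which the labels name no treatment and no modified allele. Single cells of 5 sorted populations were deposited on 1 plate and measured by CEL-seq2, which counts molecules at the 3' end of polyA RNA with a unique molecular identifier (UMI). Each c-Kit group is therefore 1 sample made of many cells of 1 mouse. No test, standard error or p-value was possible, and every interval below covers counting error only.

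c-Kit is the receptor tyrosine kinase for stem cell factor, and its signal helps to keep blood stem cells and early progenitors alive and dividing. It is one of the antigens that define the LSK gate, a compartment that holds the long-lived stem cells together with multipotent progenitors that are beginning to lean towards one lineage or another. Among the progenitors, those that carry much of the cytokine receptor Flt3 are known to lean towards the lymphoid lineages, where genes of antigen receptor assembly such as *Dntt* are first transcribed at a low level.

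c-Kit fluorescence ran from 7265 to 13046 arbitrary units in c-Kit-high wells, with a median of 8380.5, and from 2842 to 5765 in c-Kit-low wells, with a median of 4088.5. The lines between the groups fell in a continuous range: the wells just outside them were at 5767 on the low side and 7150 on the high side. Summed over wells, c-Kit-high held 292963 UMIs on mouse genes and c-Kit-low 279198. A c-Kit-high well held 2003 to 18677 UMIs with a median of 8461.5, and a c-Kit-low well 3635 to 24033 with a median of 7889.5. The groups also differed in other recorded quantities. Median Sca-1 fluorescence was 4784 in c-Kit-high and 6531 in c-Kit-low wells, with ranges that overlapped. From rows K, L, M and N came 7, 5, 9 and 11 c-Kit-high wells and 11, 8, 7 and 6 c-Kit-low wells. For this reason values within rows, and within the wells up to the median Sca-1 fluorescence of all 95 (the lower Sca-1 range) and above it (the upper Sca-1 range), are given beside many of the results. For these values the wells of each part were ranked by c-Kit anew, so the groups are not the main groups split. The highest 16 wells were set against the lowest 16 in rows K and L and in the lower Sca-1 range. In rows M and N and in the upper Sca-1 range it was 15 against 15. No barcode was shared by 2 wells. The markers *Kit*, *Cd34*, *Flt3*, *Adgrg1*, *Meis1* and *Hlf* together made up 3523 UMIs per 1000000 mouse UMIs (CPM; 95% exact Poisson interval 3311 to 3744) in c-Kit-high and 3324 CPM (3113 to 3545) in c-Kit-low, against 135 to 230 CPM in the 4 other populations. Every well of both groups held a UMI of these markers.

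1 of the 95 wells stood apart. Over 3906 genes the well K5, in the c-Kit-high group, had a Pearson's r of 0.279 with the other progenitor/stem wells. Its r was 0.316 with the B lymphocytes, 0.313 with the granulocytes, 0.290 with the T lymphocytes and 0.249 with the erythroblasts. These values lie too close together to name its kind. K5 had the highest c-Kit fluorescence of all, 13046, but only 2003 UMIs and no *Kit* UMI, and it supplied 0.684% of the UMIs of its group. Without it the *Kit* difference was 0.85 in place of 0.84 on the log2 scale, and that of the lymphoid genes described below was -1.17 in place of -1.16. The erythroblast markers went from -0.27 to -0.38 and the granulocyte markers from -0.25 to -0.38.

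*Kit* transcript was higher where its protein was higher. *Kit* (ENSMUSG00000005672, GRCm38 chr5:75574916-75656722, plus strand) was at 819 CPM (95% exact Poisson interval 719 to 930, 240 UMIs) in c-Kit-high and 458 CPM (382 to 545, 128 UMIs) in c-Kit-low. The log2 ratio of high over low was 0.84, with a 95% exact conditional binomial interval of 0.52 to 1.16. Well by well the groups overlapped widely: *Kit* ran from 0 to 1700 CPM with a median of 755 in c-Kit-high, and from 0 to 1257 CPM with a median of 453 in c-Kit-low. A *Kit* UMI was found in 31 of the 32 wells of each group. Over all 95 wells, which share a plate, a mouse and a sequencing library, Spearman's rho between c-Kit fluorescence and *Kit* CPM was 0.37 and Pearson's r 0.30. The transcript did not follow the fluorescence evenly. In 4 bins of fluorescence, *Kit* was at 414 CPM (334 to 508) in the lowest bin and at 752, 779 and 788 CPM in the next 3, whose intervals overlapped. Median c-Kit fluorescence of those 3 bins still went from 5858 to 8923. The size of the difference in *Kit* moved with the wells compared and with the handling of depth. It was 0.41 among wells with Sca-1 at or below the median of all 95, 1.11 among those above it, and 0.46 with the 48 highest wells against the other 47. With wells thinned at random to 3000 UMIs, which left out K5, it was 0.36. As a mean over wells it was 0.81, and with scran size factors 0.78.

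**Figure D1:**
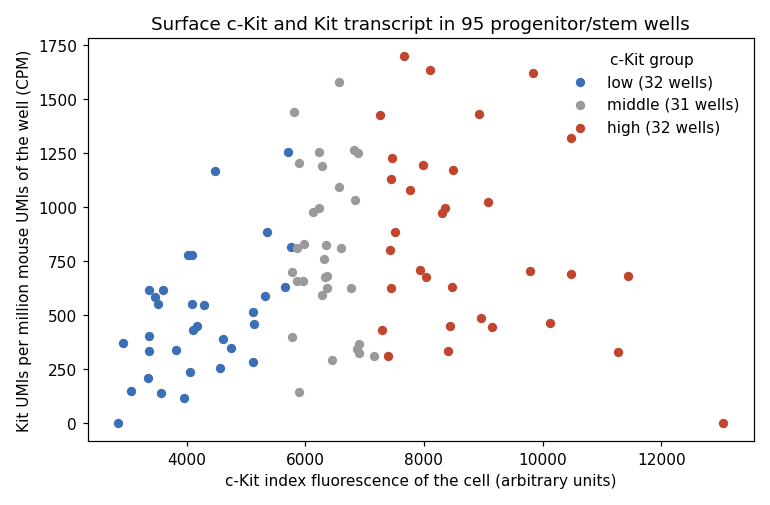
Surface c-Kit of each cell (x axis, index fluorescence in arbitrary units) against its *Kit* transcript (y axis, CPM of the well) in 95 progenitor/stem wells, 1 point a well, coloured by c-Kit group. The cloud widens and lifts from the c-Kit-low wells (median 453 CPM) to the c-Kit-high wells (median 755 CPM), with many wells of both groups at the same level.

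The genes that stood out on the low side were lymphoid. *Dntt*, which encodes the terminal deoxynucleotidyl transferase that adds bases at the joints of rearranged antigen receptor genes, had 5 UMIs in c-Kit-high, 82 in the middle wells and 238 in c-Kit-low. *Ighm*, the constant region of the IgM heavy chain, had 10, 48 and 110. *Flt3*, the receptor for Flt3 ligand, had 56, 115 and 196. The 3 genes lie on different chromosomes in GRCm38: *Dntt* at chr19:41029275-41059525 (plus strand), *Ighm* at chr12:113418558-113422730 (minus strand) and *Flt3* at chr5:147330741-147400489 (minus strand). The 250 bases upstream of the start of *Dntt* (chr19:41029025-41029274, plus strand) and of *Flt3* (chr5:147400490-147400739, minus strand, printed 5' to 3' in the direction of the gene) are shown because these genes went the same way. They are RefSeq sequences of the build GRCm38.p6. Capitals mark the letters CANNTG, the E-box read by E proteins, and GATAA or its reverse complement TTATC, the core read by GATA factors.
Dntt: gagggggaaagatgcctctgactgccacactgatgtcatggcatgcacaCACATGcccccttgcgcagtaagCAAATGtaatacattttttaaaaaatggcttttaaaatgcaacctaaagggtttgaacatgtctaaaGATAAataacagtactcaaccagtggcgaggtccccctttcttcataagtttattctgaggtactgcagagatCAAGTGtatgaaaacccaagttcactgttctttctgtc
Flt3: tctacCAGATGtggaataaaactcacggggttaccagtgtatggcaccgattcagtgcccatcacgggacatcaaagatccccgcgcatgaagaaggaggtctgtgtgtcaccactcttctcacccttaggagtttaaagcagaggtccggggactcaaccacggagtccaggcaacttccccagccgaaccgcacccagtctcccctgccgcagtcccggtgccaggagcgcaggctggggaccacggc
The *Dntt* window held 3 E-box matches and 1 GATA match, and the *Flt3* window 1 E-box match and no GATA match, with no overlap between matches. Of 32851 promoter windows of the same length, 66.2% held an E-box match and 22.6% a GATA match, so the letters are common, and a match is not evidence of binding.

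In c-Kit-high wells *Dntt* ran from 0 to 199 CPM with a median of 0, and in c-Kit-low wells from 0 to 5785 CPM with a median of 206. It had a UMI in 5 c-Kit-high and 20 c-Kit-low wells. 2 or more UMIs were found in no c-Kit-high well, in 7 of the 31 middle wells and in 15 c-Kit-low wells. The log2 ratio of the sums was -5.64 (-7.28 to -4.40). In c-Kit-high the shares of thinned wells with a *Dntt* or *Ighm* UMI were at the background level, so the sizes of both ratios rest in part on background UMIs and only their direction is read. 1 c-Kit-low well gave 30.7% of that group's *Dntt* UMIs, and without any single well the ratio stayed between -5.94 and -5.18.

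*Ighm* ran from 0 to 297 CPM in c-Kit-high and from 0 to 1238 CPM in c-Kit-low wells, with medians of 0 and 192. Its log2 ratio was -3.53 (-4.63 to -2.60). *Flt3* ran from 0 to 1520 CPM with a median of 141 in c-Kit-high, and from 0 to 1615 CPM with a median of 668 in c-Kit-low. Its log2 ratio was -1.88 (-2.33 to -1.44), and 19 c-Kit-high against 29 c-Kit-low wells had a UMI. A single c-Kit-high well reached the *Flt3* level of the highest c-Kit-low wells, and the medians lay apart. The direction held for all 3 genes in rows K and L, in rows M and N, and in both Sca-1 ranges. The values within the Sca-1 ranges were -6.03 and -3.40 for *Dntt*, -3.81 and -2.49 for *Ighm* and -1.70 and -1.59 for *Flt3*, those with lower Sca-1 first.

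The 3 genes were found together in part of the wells. *Dntt* was found in 5 c-Kit-high, 15 middle and 20 c-Kit-low wells, *Ighm* in 8, 15 and 22, and *Flt3* in 19, 27 and 29. Both *Dntt* and *Ighm* were found in 3 c-Kit-high, 8 middle and 16 c-Kit-low wells, and each of these also held a *Flt3* UMI. Neither was found in 22 c-Kit-high, 9 middle and 6 c-Kit-low wells. Genes found in so many wells share some of them in any case, and whether they share more was not tested. Because RNA freed from broken cells can put a UMI into any well, wells were also thinned to 3000 UMIs and set beside a population that should lack the gene. *Dntt* was then found in 3.23% of c-Kit-high wells (95% exact binomial interval 0.0816 to 16.7%), 32.3% of middle wells and 53.1% of c-Kit-low wells (34.7 to 70.9%). In the erythroblasts, whose median depth was 6113.5 UMIs, it was found in 4.26% of thinned wells. The share in c-Kit-high is at that background and is not read as expression. For *Ighm* the shares were 6.45%, 19.4% and 62.5%, against 8.51% in erythroblasts, and the share in c-Kit-high is likewise at background. For *Flt3* they were 35.5%, 58.1% and 81.3%, against 4.26%, so *Flt3* was above background in all 3 sets of wells. Unthinned, the shares of c-Kit-high and c-Kit-low wells were 15.6% and 62.5% for *Dntt*, 25.0% and 68.8% for *Ighm*, and 59.4% and 90.6% for *Flt3*.

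**Figure D2:**
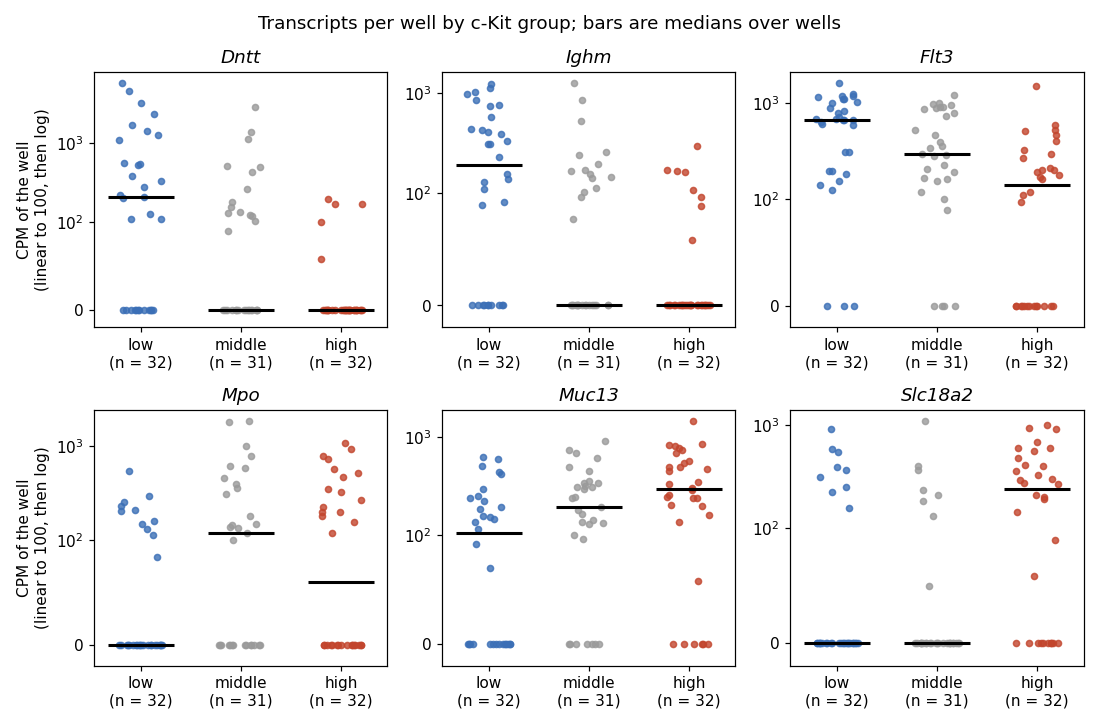
CPM of 6 genes in every progenitor/stem well by c-Kit group (x axis: 32 low, 31 middle and 32 high wells; y axis: CPM, linear to 100 and then logarithmic), 1 point a well, bars at the median. *Dntt*, *Ighm* and *Flt3* thin out from low to high (*Dntt* median 206 CPM to 0), whereas *Muc13* and *Slc18a2* are fuller in the c-Kit-high wells and *Mpo* has its highest median in the middle wells (118 CPM).

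The list of lymphoid priming genes as a whole showed the same. Of its 25 genes 23 matched a row of the table, and their summed level was 1901 CPM (1747 to 2066) in c-Kit-high, 2916 CPM in the middle wells and 4255 CPM (4016 to 4504) in c-Kit-low. The log2 ratio was -1.16 (-1.31 to -1.02). Of the 8 members with at least 100 UMIs in both groups together, 6 were at least 1.5-fold lower in c-Kit-high and 1 was at least 1.5-fold higher. Over all 888 genes with that many UMIs, 39 were that much lower, or 4.39%, and 53 that much higher, or 5.97%. The median log2 ratio was -1.14 over the 8 members and 0.02 over the 888 genes. Besides *Dntt*, *Ighm* and *Flt3* the lower members were *Lsp1*, an actin-binding protein of leukocytes (-1.35, 32 against 78 UMIs), *Ikzf1*, which encodes the lymphoid transcription factor Ikaros (-0.92, 51 against 92), and *Mef2c*, a transcription factor used in early lymphoid cells (-0.74, 88 against 140). *Cd27*, a receptor of the tumour necrosis factor family, was at -0.03 (-0.52 to 0.46). Among members too low for that count, which here and below were picked after their values were seen, *Rag2* had no UMI in c-Kit-high and 8 in c-Kit-low, *Il12a* 18 and 41, *Satb1* 21 and 36, *Cd52* 31 and 51, and *Blnk* 2 and 11. The c-Kit-low UMIs of *Rag2* came from 4 wells and those of *Blnk* from 3. *Il12a* was found in 14 and 15 wells, *Satb1* in 10 and 19, and *Cd52* in 16 and 18. Over the 23 members the interval lay below 0 for 11 and above 0 for 1. Among the 888 genes, all with at least 100 UMIs, it lay below 0 for 66 and above 0 for 90. Leaving out *Dntt* brought the list to -0.85, and leaving out *Ighm* and *Flt3* as well to -0.48 (-0.65 to -0.30). Within rows it was -1.00 and -1.37, and in the lower and upper Sca-1 ranges -1.08 and -1.06.

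Markers of mature B and T lymphocytes were at the level of the populations that should lack them. The 7 B lymphocyte markers, among them *Cd79a*, *Ms4a1* and *Pax5*, summed to 99.0 CPM in c-Kit-high and 96.7 CPM in c-Kit-low, against 130 CPM in erythroblasts and 8173 CPM in the sorted B lymphocytes. At 0 were 3 of the 7 in c-Kit-high (*Ebf1*, *Pax5* and *Vpreb3*) and 2 of the 7 in c-Kit-low (*Ms4a1* and *Pax5*). The 9 T lymphocyte markers summed to 44.4 and 78.8 CPM, against 52.5 CPM in erythroblasts and 5280 CPM in the sorted T lymphocytes, with 3 of the 9 at 0 in each group, *Cd3g* and *Cd8a* in both.

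The other genes of the low side were mixed in kind. *H2afy*, which encodes the histone variant macroH2A, was the most abundant of the 10 lowest genes and was found in nearly every well. It ran from 0 to 3636 CPM with a median of 1285 in c-Kit-high and from 551 to 6808 CPM with a median of 2733 in c-Kit-low (log2 ratio -1.13, -1.30 to -0.96). *Emb*, which encodes the membrane glycoprotein embigin, was at -1.49 (46 against 123 UMIs). *Zeb2*, an E-box-binding repressor, was at -1.60 (26 against 75 UMIs; -0.77 in the lower and -2.43 in the upper Sca-1 range), and *Cd53*, a tetraspanin of leukocytes, at -1.13 (33 against 69). Of the 2 pseudogenes among the 10, *Gm1966* was at -1.27 and *Rpl7a-ps7* at -1.26; reads of such copies can be split with related genes. *Emb*, *H2afy* and *Zeb2* overlap exons of genes on the opposite strand, and the use of strand in counting is not given in the sources used here. For all 10 genes the middle wells lay between the 2 groups, and this was so for 35 of the 39 genes past the fold on the low side and for 37.2% of the 888 genes. A wide gap between the groups leaves more room for a value between, so these counts follow in part from how the genes were picked. They are not read as a graded trend.

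**Figure D3:**
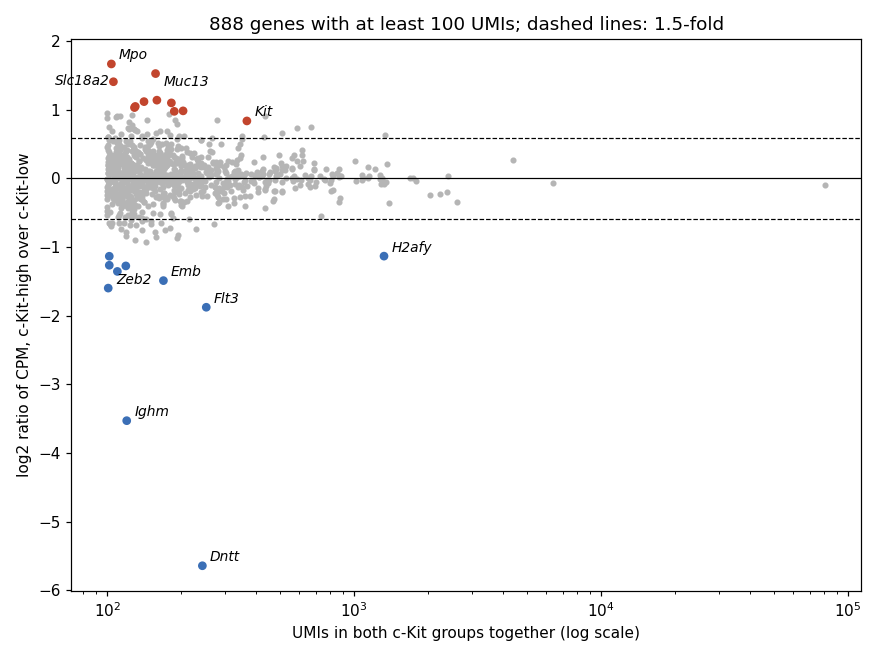
The log2 ratio of CPM, c-Kit-high over c-Kit-low (y axis), against the UMIs in both groups together (x axis, logarithmic) for 888 genes, with dashed lines at 1.5-fold. Coloured points are the 10 highest (with *Kit*, red) and 10 lowest genes (blue); *Dntt* at -5.64 and *Ighm* at -3.53 lie far below the cloud, and nothing lies as far above it.

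The high side was less steep, and its leading genes belonged to several groups. *Mpo*, the myeloperoxidase of granulocyte primary granules, had 80 UMIs in c-Kit-high, 89 in the middle wells and 24 in c-Kit-low (log2 ratio 1.67, 0.99 to 2.39). It ran from 0 to 1074 CPM with a median of 59.5 in c-Kit-high, and from 0 to 544 CPM with a median of 0 in c-Kit-low, and the middle wells had the highest median, 118 CPM. Thinned, it was found in 32.3% of c-Kit-high, 32.3% of middle and 18.8% of c-Kit-low wells, against 2.78% of T lymphocytes. *Mpo* went with Sca-1 more than with c-Kit over the 95 wells (Spearman's rho -0.46 and 0.21). In the lower Sca-1 range its ratio was 1.43 and in the upper 0.09.

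*Muc13*, a transmembrane mucin, had the largest Spearman's rho with c-Kit of the 10 highest genes, 0.38 over the 95 wells. It ran from 0 to 1440 CPM with a median of 295 in c-Kit-high and from 0 to 617 CPM with a median of 103 in c-Kit-low (118 against 39 UMIs, log2 ratio 1.53, 0.99 to 2.09). In the 4 bins of fluorescence it was at 134, 164, 309 and 442 CPM. Thinned, it was found in 54.8% of c-Kit-high (36.0 to 72.7%), 45.2% of middle and 37.5% of c-Kit-low wells (21.1 to 56.3%), against 8.33% of T lymphocytes. The log2 ratio of the thinned sums was 0.96. Its ratio was 1.86 in the lower and 0.64 in the upper Sca-1 range.

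*Slc18a2*, a vesicular monoamine transporter, was higher in c-Kit-high wells than in both other sets. It was found in 22 c-Kit-high, 8 middle and 9 c-Kit-low wells and had 78, 22 and 28 UMIs. The medians were 239 CPM in c-Kit-high and 0 in both other sets (log2 ratio of high over low 1.41, 0.77 to 2.09). Thinned, it was found in 54.8%, 12.9% and 21.9% of wells, against 2.78% of T lymphocytes. The ratio was 0.37 in the lower and 1.61 in the upper Sca-1 range, and 0.74 in rows K and L against 2.35 in rows M and N. *Slc18a2*, *Mpo* and *Muc13* each overlap an exon of a gene on the opposite strand, as do *Tspan32* and *Spns2* below.

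The other genes of the 10 highest that are reported here were *Atad2* (log2 ratio 1.14), a chromatin ATPase, *Usp1* (1.12), a deubiquitinase of DNA repair, *Tspan32* (1.05), a tetraspanin of blood cells, *Mcm3* (1.03), a subunit of the replicative helicase, *mt-Co2* (0.98), a subunit of cytochrome oxidase, and *Spns2* (0.98), a sphingolipid transporter. Several of these moved with the wells compared. *Atad2* was at 1.87 in the lower and 0.04 in the upper Sca-1 range. In rows K and L and in rows M and N, in that order, *mt-Co2* was at 0.08 and 0.79, *Usp1* at 0.49 and 1.81, *Spns2* at 1.69 and 0.29, and *Tspan32* at 1.07 and 0.34. The middle wells lay between the groups for 6 of the 10, and for 31 of the 53 genes past the fold on the high side. The choice of genes favours these counts too. 9 of those 53 were mitochondrial, of 10 mitochondrial genes with at least 100 UMIs. Mitochondrial genes took 1.68% of the UMIs of c-Kit-high, 1.92% of those of the middle wells and 1.22% of those of c-Kit-low. The share was thus highest in the middle wells. In single wells of c-Kit-high and c-Kit-low it ran from 0.340 to 8.51% and from 0.169 to 9.02%, with medians of 0.919% and 0.633%. The part of RNA quality in these 9 genes was not tested.

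**Figure D4:**
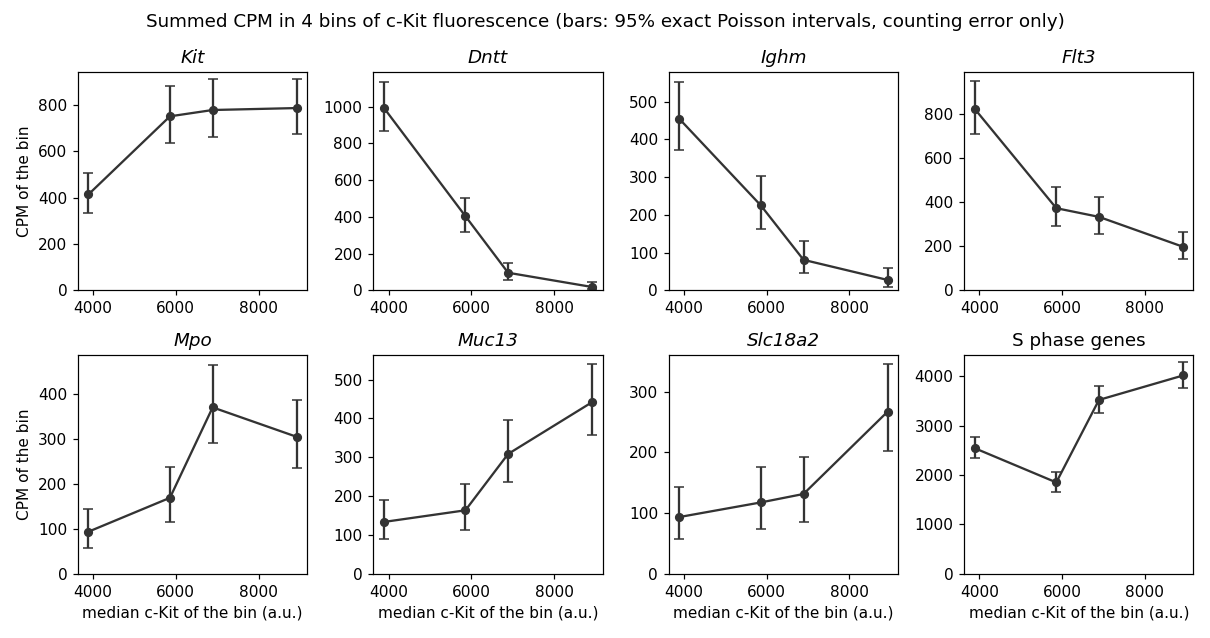
Summed CPM of 7 genes and of the S phase list (y axes) in 4 bins of c-Kit fluorescence (x axes: median fluorescence of the bin in arbitrary units; 24, 24, 24 and 23 wells), with 95% exact Poisson intervals. *Kit* is at 414 CPM in the first bin and between 752 and 788 CPM in the others, *Dntt* and *Ighm* are lower in each bin than in the one before, *Flt3* is at 373 and 334 CPM with overlapping intervals in the middle bins, and *Slc18a2* is at 93.6, 118, 132 and 267 CPM. The S phase list is at 2544, 1851, 3521 and 4016 CPM, lowest in the second bin.

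Read by lineage, the members of the granulocyte-monocyte list went both ways. The list summed to 2720 CPM in c-Kit-high and 2590 CPM in c-Kit-low (log2 ratio 0.07, -0.08 to 0.22). Of its 5 members with at least 100 UMIs, *Mpo* and the granule protease *Prtn3* (0.69, 0.23 to 1.15) were past the fold on the high side and none on the low side, beside 5.97% and 4.39% of all genes. *Calr*, a chaperone of the endoplasmic reticulum, was at 0.25, *Plac8* at -0.34 and the lysozyme gene *Lyz2* at -0.39. Over the 25 matched members, the interval of the ratio lay above 0 for 4 and below 0 for 2, beside 90 and 66 of the 888 genes. Beside *Mpo* and *Prtn3* the former were *Nkg7*, a granule membrane protein, with 30 UMIs in c-Kit-high and 10 in c-Kit-low, and *Ccl9*, a chemokine, with 35 and 18. The latter were *Irf8*, a transcription factor of monocytes and dendritic cells, with 6 and 24, and *Ly86*, a partner of an innate immune receptor, with 0 and 7. *Nkg7* was found in 13 and 9 wells, *Ccl9* in 14 and 12, and *Irf8* in 4 and 6, and the *Ly86* UMIs came from 2 c-Kit-low wells. In the upper Sca-1 range the list was at -0.21 and *Prtn3* at -0.05.

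Megakaryocyte-erythroid genes summed to 2604 CPM in c-Kit-high and 2296 CPM in c-Kit-low (log2 ratio 0.18, 0.03 to 0.34). Only *Muc13* and the carbonic anhydrase *Car2* (-0.19, -0.45 to 0.06) passed 100 UMIs, and *Muc13* was the 1 past the fold. Over the 29 members, the interval of the ratio lay above 0 for 4 and below 0 for 1, beside 90 and 66 of the 888 genes. Besides *Muc13* the former were *Itga2b*, the integrin chain CD41, with 33 UMIs in c-Kit-high and 7 in c-Kit-low, *Pf4*, a platelet chemokine, with 13 and 2, and *Apoe*, apolipoprotein E, with 61 and 24. The latter was *Rhd*, a blood group antigen, with 10 and 22. The list was at -0.01 in rows K and L and at 0.38 in rows M and N. Haemoglobin transcripts made up 0.925% of the UMIs of c-Kit-high, 1.62% of those of the middle wells and 1.13% of those of c-Kit-low.

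Genes of DNA replication were higher in c-Kit-high. Of the 25 genes of the S phase list 24 matched a row, and they summed to 3639 CPM (3424 to 3864) in c-Kit-high, 2970 CPM in the middle wells and 2346 CPM (2170 to 2533) in c-Kit-low. The log2 ratio was 0.63 (0.49 to 0.78). The list did not rise evenly with the fluorescence: in the 4 bins it was at 2544, 1851, 3521 and 4016 CPM. Of the 5 members with at least 100 UMIs, 3 were past the fold on the high side, against 5.97% of all genes, and none on the low side. These were *Mcm3* (1.03, 0.48 to 1.60), *Pcna*, the sliding clamp of the polymerase (0.72, 0.18 to 1.27), and *Cdca7*, a chromatin remodelling factor (0.65, 0.09 to 1.24). *Mcm6*, another helicase subunit, was at 0.56 (0.17 to 0.95), and *Rfc2* at 0.21 (-0.37 to 0.80). Among the members under 100 UMIs *Hells*, a chromatin remodelling ATPase, had 68 UMIs against 18, *Tyms*, which makes thymidylate, 29 against 8, and *Lig1*, which joins Okazaki fragments, 60 against 29. Others hardly differed: *Mcm2* had 41 against 39, *Dut* 51 against 46, *Ung* 8 against 8 and *Rrm2* 9 against 10. Over the 24 matched members the interval lay above 0 for 9 and below 0 for none, beside 90 and 66 of the 888 genes. The S phase share of UMIs was above the median of the 95 wells in 19 c-Kit-high, 17 middle and 11 c-Kit-low wells. In single wells the share ran from 0.051 to 0.847% with a median of 0.200% in c-Kit-high, and from 0.039 to 0.716% with a median of 0.106% in c-Kit-low. 1 well carried much of the c-Kit-low sum: without K1, which had 24033 UMIs, the ratio was 0.94. It was 0.56 in rows K and L and 1.17 in rows M and N, and 0.83 and 0.33 in the lower and upper Sca-1 ranges.

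Genes of G2 and mitosis had no settled direction. The list was at 0.21 (0.05 to 0.37), and of its 4 members with at least 100 UMIs none was past the fold. *Top2a*, the topoisomerase of dividing chromosomes, was at 0.56, *Mki67*, the proliferation antigen, at 0.39, and *Smc4*, a condensin subunit, at 0.30, whereas *Hmgb2*, a DNA-bending protein, was at -0.29. A single well could turn the sum: without the c-Kit-high well N14 it was -0.09 and without the c-Kit-low well L6 0.47. It was -0.53 in rows K and L and 0.90 in rows M and N, and 0.90 and -0.27 in the lower and upper Sca-1 ranges. The histone gene *Hist1h2ap*, which belongs to a family of near-identical copies, is not in this list and was singled out after its values were seen. It had 182 UMIs in c-Kit-high, 16 in the middle wells and 96 in c-Kit-low, found in 17, 8 and 17 wells.

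The sum of the stem cell genes differed little. Of 28 genes 26 matched a row and summed to 4260 CPM in c-Kit-high and 3843 CPM in c-Kit-low (log2 ratio 0.15, 0.03 to 0.27). Of the 6 with at least 100 UMIs, *Hoxa9*, a homeobox factor of progenitors, was past the fold on the low side (-0.79, -1.36 to -0.23, 45 against 74 UMIs), and none was on the high side. *Hlf*, a transcription factor of stem cells, was at 0.02 (-0.26 to 0.31), *Cd34*, a sialomucin of progenitors, at 0.13 and *Adgrg1*, an adhesion receptor, at 0.41 (0.18 to 0.65). Over the 26 members, the interval lay above 0 for 3 (*Adgrg1*, *Ifitm1* and *Mllt3*) and below 0 for 2 (*Hoxa9* and *Cish*). Among the 888 genes it did so for 90 and 66. *Mllt3*, a chromatin reader that helps to maintain stem cells, had 42 against 21 UMIs, and *Cish*, an inhibitor of cytokine signalling, 1 against 10. *Procr*, a receptor used to enrich stem cells, had 9 against 12, and *Slamf1* 3 against 5, which is too few to place. The list was at 0.56 in rows K and L and at -0.12 in rows M and N.

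The lists of the receptor's partners had sums near those of the other group, and few of their members could be placed. The 28 matched genes of Kit signalling, the adaptors, kinases and phosphatases downstream of the receptor, summed to 2038 CPM in c-Kit-high and 2174 CPM in c-Kit-low (log2 ratio -0.09, -0.26 to 0.07). 3 had at least 100 UMIs and none of them was past the fold: *Stat3*, a transcription factor, was at -0.18, *Inpp5d*, the lipid phosphatase SHIP, at -0.24, and *Pik3r1*, the regulatory subunit of PI3 kinase, at -0.40. The interval excluded 0 for none of the 28. The 14 matched transcription factors known to act on *Kit* were at -0.01 (-0.15 to 0.12). Among them *Myb* was at 0.05, *Lmo2* at -0.19, *Ldb1* at -0.01 and *Cbfb* at 0.58 (0.00 to 1.18). *Gata2* had 50 UMIs against 33. Of the other antigens used in the sort, *Ptprc*, whose product carries B220, was at 474 CPM in c-Kit-high and 541 CPM in c-Kit-low (log2 ratio -0.19, -0.53 to 0.15). *Ly6a*, which encodes Sca-1, had 17 and 21 UMIs and *Cd44* 10 and 10, too few to place.

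**Figure D5:**
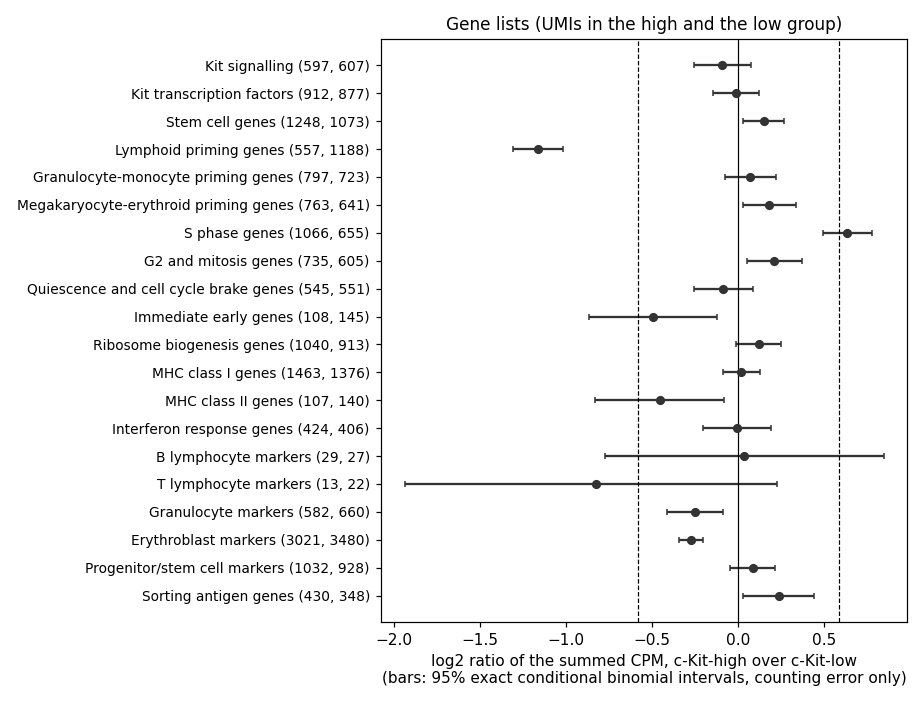
The log2 ratio of the summed CPM, c-Kit-high over c-Kit-low (x axis), for 20 gene lists (y axis, with the UMIs of both groups), with 95% exact conditional binomial intervals and dashed lines at 1.5-fold. The lymphoid priming list at -1.16 lies past the fold on the low side and the S phase list at 0.63 on the high side. Of the others, the T lymphocyte markers at -0.83 rest on 13 and 22 UMIs, and the immediate early and MHC class II genes are at -0.49 and -0.46.

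The amount of RNA counted per cell was read against a spike-in. The artificial ERCC RNAs added to each well gave 14396 UMIs in c-Kit-high and 15335 in c-Kit-low, so mouse UMIs per ERCC UMI were 20.4 and 18.2, a log2 ratio of 0.16. It was -0.26 in rows K and L and 0.44 in rows M and N. Because levels are shares of a group's UMIs, fewer cells with a transcript and less of it per cell cannot be told apart in the sums, which is why counts of wells stand beside many of them.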

How the data were processed

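Index-sorted single cells of 5 populations of 1 mouse were measured by CEL-seq2 on 1 plate, and the labels give the fluorescence of each cell. The table deposited by the authors holds raw UMI counts (whole numbers, unscaled) made with *scPipe*, which assigns aligned reads to exons, demultiplexes by the designed barcodes and collapses UMIs. Which genome build and annotation the counting used, and whether it read strand, is not given in the sources used here. Read 1 has contradictory layouts in the labels. No use was made of 9 columns without a matching sample. Of 19829 mouse gene IDs 19755 matched a GENCODE M21 (GRCm38) symbol, and 74 ERCC rows were kept apart. Coordinates are from GENCODE M21, which may not be the authors' build.

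The 95 LSK wells were ranked by c-Kit fluorescence, and counts were summed over the 32 highest and 32 lowest wells and expressed as CPM of mouse-gene UMIs. Intervals are 95% exact Poisson for sums, exact binomial for shares and exact conditional binomial for ratios. Each group is 1 sample, so nothing was tested. Ratios were counted past 1.5-fold among genes with at least 100 UMIs in both groups together. Genes named are the 10 highest and 10 lowest of these that were detected in 25% or more of the wells of whichever group was higher, *Kit*, and list members. *Hist1h2ap* falls under none of these and was picked after its values were seen. The 20 lists hold 324 genes, of which 311 matched a row. The members and lists were chosen with earlier results of these data known. No doublet caller was run, and no well was removed. Summed depth was 292963 and 279198 UMIs, and the interval code was tested on simulated data. Alternatives used scran 1.30.0 size factors, edgeR 4.0.16 TMM factors, means over wells, thinning to 3000 UMIs, other filters, folds and group sizes, rows, ranges of Sca-1, and leaving out wells. Computation used Python 3.11.15, scipy 1.17.1 and R 4.3.3. Some items are not reported here.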

Additional observations from a re-analysis of the deposited data

How the results depend on the processing

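The limits are those of 1 mouse, 1 plate and shallow wells: genes under 100 UMIs could not be placed, and the groups differ in Sca-1 and plate row as well as c-Kit. For 19 of the 10 highest and 10 lowest genes, all 285 values over 15 alternatives kept their sign. Extremes picked from the same wells tend to keep their sign, so this says little about how stable they are. *Atad2* came to 0.04 and *Mpo* to 0.09 with Sca-1 above the median, and *mt-Co2* to 0.08 in rows K and L. The list member *Prtn3* turned to -0.055 with Sca-1 above the median. The cause was not tested. No paired analysis was possible because each c-Kit group is 1 sample and well positions pair nothing.

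The lymphoid list was at -1.01 as a mean over wells and with scran size factors, -0.90 with 48 against 47 wells, -1.00 in rows K and L, -1.37 in rows M and N, -0.85 without *Dntt* and -0.48 without *Dntt*, *Ighm* and *Flt3*; the last 2 and the setting without K5 were chosen after seeing the data. *Kit* was at 0.46 with 48 against 47 wells, 0.36 thinned and 0.41 with Sca-1 at or below the median. With 24 against 24 wells the megakaryocyte-erythroid list was at 0.34 and G2 and mitosis at 0.49. In rows K and L stem cell genes were at 0.56, granulocyte-monocyte genes at 0.24, megakaryocyte-erythroid genes at -0.013 and G2 and mitosis at -0.53. In rows M and N these were -0.12 for stem cell, 0.38 for megakaryocyte-erythroid and 0.90 for G2 and mitosis genes, with S phase at 1.17. With Sca-1 at or below the median S phase was at 0.83 and G2 and mitosis at 0.90. With Sca-1 above it stem cell genes were at 0.29, granulocyte-monocyte at -0.21, S phase at 0.33 and G2 and mitosis at -0.27. Mouse UMIs per ERCC UMI were at 0.18 as a mean over wells, 0.13 with 24 wells, 0.14 with 48, -0.26 and 0.44 in the 2 pairs of rows, 0.54 and -0.22 in the lower and upper Sca-1 ranges, and 0.14 without the wells K5 and M3, the only ones with fewer than 3979.5 UMIs.

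The 53 genes past the fold on the high side and 39 on the low side became 83 and 63 thinned, 81 and 54 in rows K and L, 130 and 89 in rows M and N, 93 and 53 with lower and 108 and 75 with higher Sca-1. They became 175 and 143 from 50 UMIs, 12 and 6 from 200 UMIs, 2493 and 2547 with no filter, and 8 and 10 at 2-fold; 25 genes were lower with 48 against 47 wells. Leaving out each well in turn gave 0.77 to 0.96 for *Kit*, 41 to 72 higher and 35 to 44 lower genes, 0.01 to 0.04 for the median, 0.08 to 0.19 for stem cell, -1.21 to -1.05 for lymphoid, 0.02 to 0.17 for granulocyte-monocyte, 0.09 to 0.26 for megakaryocyte-erythroid, 0.53 to 0.94 for S phase and -0.089 to 0.47 for G2 and mitosis genes, and 0.12 to 0.23 for mouse UMIs per ERCC UMI. TMM factors and leaving out the most abundant RNA genes moved neither *Kit* nor any of these lists by more than the counting error. In that order they gave 50 and 48 higher genes, 41 and 42 lower genes, and medians of 0.011 and 0.0065. Mouse UMIs per ERCC UMI were not computed for them.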

Other observations

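Other gene lists were compared in the same way and held few members with enough counts. Immediate early genes such as *Fos* and *Jun*, which cells switch on within minutes of a disturbance, summed to 108 UMIs in c-Kit-high and 145 in c-Kit-low (log2 ratio -0.49, -0.87 to -0.13), and no member reached 100 UMIs. Without 1 c-Kit-low well, K24, the ratio was -0.17. MHC class II genes had 107 against 140 UMIs (-0.46, -0.83 to -0.08). The member that stood out after its values were seen was *H2-Ob*, a chain of the peptide-loading regulator, with 14 UMIs in c-Kit-high, 29 in the middle wells and 41 in c-Kit-low. MHC class I genes were at 0.02 (-0.09 to 0.13), with *B2m*, their shared light chain, at 0.01 (-0.13 to 0.15). Interferon response genes were at -0.01 (-0.21 to 0.19).

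Nucleolar genes of ribosome biogenesis were at 0.12 (-0.01 to 0.25); *Npm1* was at 0.15, *Ncl* at -0.10 and *Ddx21*, an RNA helicase, at 0.50 (0.01 to 1.00), and none of the 6 members with at least 100 UMIs was past 1.5-fold. Without the c-Kit-low well K1 the list was at 0.31. Quiescence and cell cycle brake genes were at -0.09 (-0.26 to 0.09). The 8 granulocyte markers were at -0.25 (-0.41 to -0.09) and turned to 0.11 without the c-Kit-low well K6, and the 7 erythroblast markers were at -0.27 (-0.34 to -0.20) and came to -0.09 without it. As a mean over wells, which weights wells equally, the direction of both turned, to 0.31 for the granulocyte and 0.14 for the erythroblast markers, and with scran size factors to 0.36 and 0.19. These means include the shallow well K5, which held the highest shares in c-Kit-high, 2.60% granulocyte and 12.1% erythroblast markers. Well medians in c-Kit-high and c-Kit-low were 0.199 and 0.181% for granulocyte markers, and 0.980 and 1.20% for erythroblast markers. The part of K5 in the turn was not tested. Antigen genes used in the sort, *Kit* included, were at 0.24 (0.03 to 0.44), and the 6 progenitor/stem cell markers at 0.08 (-0.05 to 0.21).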
